A study of Homo sapiens with 9 samples.

Results

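The mitochondrial ribosomal proteins were taken as the probes of the array whose gene symbol was MRPL or MRPS followed by a number, with or without a final letter. The rule found 89 probes of 70 genes, 54 probes of 45 genes for the large subunit (MRPL) and 35 probes of 25 genes for the small subunit (MRPS), among 30968 probes in all. Both RNAs of each array came from HaCaT cells, an immortalized human keratinocyte line. Exposed cells received for 1 h an extremely low frequency electromagnetic field (ELF-EMF; 1 mT, 50 Hz), and non-exposed cells, labelled sham, were the controls. Each of 3 biological samples (A, B and C) was hybridized on 3 arrays with 2 colours, 2 with exposed RNA in the red dye Cy5 (Cy5 arrays) and a dye swap with it in the green dye Cy3. All values below are log2 ratios of exposed over non-exposed cells, with the dye swaps turned, so that a value below 0 means less transcript in exposed cells. The table states neither the log base, which was read from the values, nor the direction, which is the likely one given the dyes in the labels. A ratio carries no expression level, so genes can be compared by their differences only.

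Mitochondria hold their own ribosome, the mitoribosome, which makes the few membrane proteins of oxidative phosphorylation that mitochondrial DNA encodes. The ribosomal RNAs come from mitochondrial DNA, whereas all its proteins are encoded in the nucleus, made in the cytosol and imported. The small subunit binds and decodes the mRNA and the large subunit forms the peptide bond. Part of the proteins have counterparts in bacterial ribosomes and the rest were gained in the mitochondrial lineage.

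Each array gave a value for a small part of its probes, between 3.76% and 23.4% of all, and between 20.2% and 78.7% of the 89 mitoribosomal probes (18 to 70 probes). The array medians as deposited lay between -0.35 and 0.38. The second Cy5 array of sample C stood apart. Its correlation across probes with the other arrays of its orientation was -0.16 to 0.21, against 0.12 to 0.58 among the others. With the turned dye swaps it was -0.36 to -0.30. The other 5 Cy5 arrays correlated with the turned dye swaps at -0.15 to 0.15 (median 0.02 over 15 pairs of arrays), and the 3 dye swaps among themselves at 0.39 to 0.43. In samples A and B, each dye-balanced value thus averages orientations whose ratios were close to uncorrelated across probes. In sample C the turned dye swap correlated with the first Cy5 array at -0.148 and with the second at -0.335. The median of the second Cy5 array of sample C was 0.31 over all probes and -0.16 over the mitoribosomal probes. Of 11 keratinocyte marker genes on the array 10 had a value on at least 1 array, as had 3 of 12 markers of other cell types, and 5 and 0 of them had a value on at least 5 arrays.

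Of the 89 probes, 14 had a value in both dye orientations of A, B and C and were tested. Another 52 had a value in 2 or more biological samples, 11 in 1 sample only, and 12 probes had none, which left 6 genes without a value (MRPL16, MRPL28, MRPL34, MRPL35, MRPL43 and MRPL45). The 14 tested probes stand for 14 genes, 11 of the large and 3 of the small subunit. For each, the Cy5 arrays of a sample were averaged, and their mean was averaged with the turned dye swap, which gave 1 dye-balanced value per biological sample (n = 3).

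Mitoribosomal transcripts lay mostly below 0 in exposed cells, and 1 of the 14 tested passed the limma test as lower, MRPL37. Over all 570 probes tested in the same way, 3.86% passed as lower (22 probes) and 0 passed as higher. The log2 ratio was below 0 for 13 of the 14 members (92.9%), against 75.3% of all tested probes. Their median was -0.15, against -0.12 for all. Since the table does not state the direction, the same counts with every sign turned would put 13 of the 14 members above 0 and the 22 probes past the threshold higher, MRPL37 among them. With each array centred on its median, MRPL37 no longer passed (adjusted p = 0.138), while 17 of all tested probes did. In that setting 9 of the 14 members stayed below 0, the median of the members was -0.05 and that of all tested probes was -0.02. An unadjusted p under 0.05 was reached by 4 of the 14 members (28.6%) and by 116 of all tested probes (20.4%). Without the array of sample C that stood apart, MRPL37 was again the 1 member past the threshold, 12 of the 14 lay below 0 and the median was -0.16, with 38 of all probes tested past the threshold. In bulk RNA, fewer cells with a transcript and less of it per cell cannot be told apart.

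The promoters of the 3 lowest tested genes with a RefSeq entry and of the highest one are printed here, since these genes mark the ends of the range of the tested members. Each runs 5′ to 3′ on the gene's own strand, over 250 bases before and 50 bases after the start, in GRCh38.p14 coordinates. They are MRPL37 at chr1:54199917-54200216 (plus strand), MRPL14 at chr6:44127259-44127558 (minus strand), MRPS24 at chr7:43869468-43869767 (minus strand) and MRPL33 at chr2:27771469-27771768 (plus strand). Capitals mark a match to 1 of 3 motif cores searched on both strands, CGCATGCG of the factor NRF1, CCGGAAG of ETS factors such as GABPA, and AAGATGGC of YY1.
MRPL37: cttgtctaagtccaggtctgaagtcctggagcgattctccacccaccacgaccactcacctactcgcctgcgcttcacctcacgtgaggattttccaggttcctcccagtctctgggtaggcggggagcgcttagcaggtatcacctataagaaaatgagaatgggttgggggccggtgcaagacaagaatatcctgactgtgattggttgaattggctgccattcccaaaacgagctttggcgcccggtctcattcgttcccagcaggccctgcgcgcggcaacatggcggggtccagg
MRPL14: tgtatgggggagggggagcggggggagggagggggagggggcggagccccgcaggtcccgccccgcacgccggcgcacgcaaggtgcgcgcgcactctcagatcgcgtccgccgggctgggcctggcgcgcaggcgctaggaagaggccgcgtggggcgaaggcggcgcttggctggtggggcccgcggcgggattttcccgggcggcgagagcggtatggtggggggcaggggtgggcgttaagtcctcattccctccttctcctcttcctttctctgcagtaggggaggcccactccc
MRPS24: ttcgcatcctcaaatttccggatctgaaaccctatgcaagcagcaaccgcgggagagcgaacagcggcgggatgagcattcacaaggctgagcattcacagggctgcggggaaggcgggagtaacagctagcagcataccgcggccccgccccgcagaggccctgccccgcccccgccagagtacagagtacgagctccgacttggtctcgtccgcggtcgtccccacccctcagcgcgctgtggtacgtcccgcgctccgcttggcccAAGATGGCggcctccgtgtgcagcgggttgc
MRPL33: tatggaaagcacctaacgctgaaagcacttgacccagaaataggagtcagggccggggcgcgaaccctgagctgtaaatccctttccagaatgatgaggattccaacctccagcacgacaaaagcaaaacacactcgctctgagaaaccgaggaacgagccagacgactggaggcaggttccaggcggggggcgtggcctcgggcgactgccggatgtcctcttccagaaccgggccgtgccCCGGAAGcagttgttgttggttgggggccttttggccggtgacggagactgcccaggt

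MRPL37 and MRPL14 held none of these cores in this window. MRPS24 held the YY1 core from base 270, and MRPL33 held the ETS core from base 243. Of the 70 mitoribosomal genes, 62 had a promoter in the table. The ETS core was in 26 of the 62 (41.9%), against 10.7% of all 27305 promoters, and the YY1 core in 18 (29.0%), against 3.03%. The NRF1 core was in 3 (4.84%), against 2.19%. Among the 322 tested genes with a promoter, 24.8% held the ETS core, 5.28% the YY1 core and 3.73% the NRF1 core. Of the 11 tested mitoribosomal genes with a promoter, 3 held the ETS core (MRPL33, MRPL48 and MRPS22), 2 the YY1 core (MRPL36 and MRPS24) and 0 the NRF1 core. MRPS22 held the ETS core at 3 places. These matches describe the letters of the windows and say nothing of binding in these cells.

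MRPL37, a large-subunit protein without a bacterial counterpart, had the lowest mean of the tested members. In sample A its log2 ratio was -0.38 and 0.14 on the Cy5 arrays and -0.67 on the dye swap. In sample B it was -0.58, -0.81 and -1.37 in the same order. In sample C it was -0.56, 1.07 and -0.29. The value was below 0 on 7 of 9 arrays, deepest in sample B, and the highest value came from the array of sample C that stood apart. The mean was -0.48 ± 0.51 (SD, n = 3; standard error 0.15, limma adjusted p = 0.0457), or -0.36 after subtracting the median over all 570 probes. It ranked 22 of 570 from the lowest. The call ended without sample A, where the mean was lower at -0.52 (adjusted p = 0.0875), and without sample B, where it was -0.21 (adjusted p = 0.839). The mean was -0.71 without sample C and -0.62 without the array that stood apart (adjusted p = 0.0206 and 0.0046). On the 2 orientations alone the mean was -0.19 on the Cy5 arrays and -0.78 on the dye swaps, and neither passed (adjusted p = 0.904 and 0.0883). Nor did it pass with a plain mean of the arrays (-0.38), quantile normalization (-0.44), the 9-array fit with a dye term, robust eBayes or its own spread, with adjusted p of 0.156, 0.0621, 0.0917, 0.0644 and 0.637 in that order.

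MRPL14, which in bacteria lies at the interface between the subunits, was the only tested member below 0 on all 9 arrays. Its log2 ratio was -0.01, -0.15 and -0.46 in sample A, -0.38, -0.70 and -1.09 in sample B, and -0.28, -0.53 and -0.07 in sample C, with the dye swap last in each. Sample B was again the lowest. The mean of -0.44 ± 0.33 (SD, n = 3) did not pass (adjusted p = 0.0671), with -0.34 on the Cy5 arrays and -0.54 on the dye swaps, and -0.42 without the array that stood apart. A second probe of MRPL14, measured on 3 arrays of samples A and C, had a mean of -0.20.

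MRPS24, the counterpart of bacterial protein S3 at the mRNA entry of the small subunit, had values on both sides of 0 in samples A and B. In sample A it was 0.36, -0.04 and -0.34, in sample B 0.07, -1.04 and -0.77, and in sample C -0.14, -0.94 and -0.50. On the second Cy5 arrays of B and C it was lower by far than on the first arrays of the same RNA. The mean was -0.41 ± 0.29 (SD, n = 3; adjusted p = 0.0933), or -0.35 without the array that stood apart. With only the second Cy5 array of each sample beside its dye swap it was -0.61 and passed (adjusted p = 0.0392). No tested member other than MRPL37 passed in any other setting run. The setting with the second Cy5 arrays could test 9 of the members, had 7 of all its probes past the threshold and includes the array that stood apart. MRPL37 did not pass in this setting (-0.32, adjusted p = 0.341).

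MRPL15, a large-subunit protein with a bacterial counterpart, split the samples. It was -0.51, -0.52 and -0.67 in sample A and -0.71, -0.39 and -0.64 in sample B. In sample C it was -0.06, 0.21 and -0.09. The values of A and B did not overlap with those of C. The mean was -0.40 ± 0.34 (SD, n = 3; adjusted p = 0.107), or -0.42 without the array that stood apart. The other measured MRPL15 probe had a mean of 0.06 over 7 arrays, and the 2 probes had the same sign on 3 of the 7 arrays they shared.

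**Figure D1:**
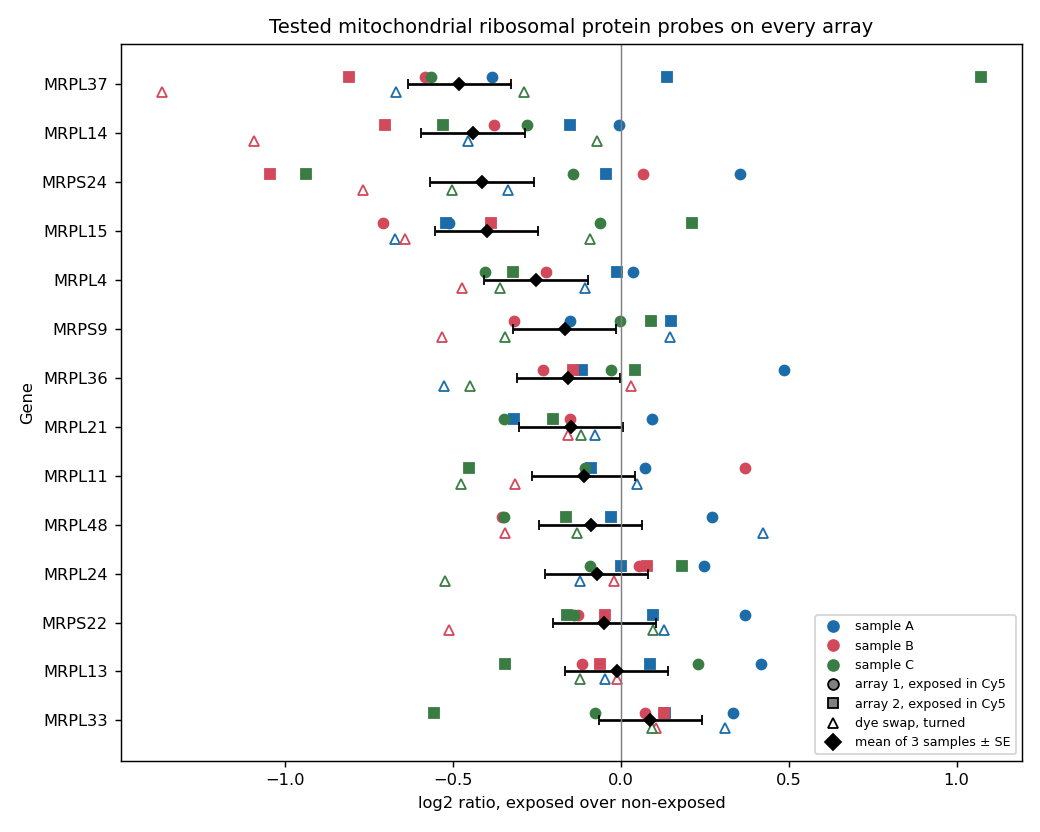
Log2 ratio of exposed over non-exposed cells (x axis) of the 14 tested mitoribosomal probes (y axis, gene) on every array, coloured by biological sample, with filled symbols for exposed RNA in Cy5, open triangles for turned dye swaps, and the mean ± standard error (0.15) in black. MRPL14 lies below 0 on all 9 arrays, whereas MRPL37 spans -1.37 to 1.07 and MRPL33 is the only gene with a mean above 0.

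The other 10 tested members had means between -0.25 and 0.09, and none passed (adjusted p between 0.348 and 0.978). MRPL4, whose bacterial counterpart lines the exit tunnel of the nascent chain, was the lowest of them, at -0.25 ± 0.18 (SD, n = 3). Its dye-balanced value was -0.05 in sample A, -0.35 in B and -0.36 in C, and 7 of 8 arrays were below 0. MRPS9 had -0.17 ± 0.25, with 0.07, -0.43 and -0.15 in A, B and C. These 2 genes were thus nearest 0 or above it in sample A. MRPL36, a small zinc-binding protein in bacteria, had -0.16 ± 0.07, and MRPL21 had -0.15 ± 0.05, the smallest spread of the 14. Their values were -0.17, -0.08 and -0.22 for MRPL36 and -0.10, -0.15 and -0.20 for MRPL21 in A, B and C. Both were therefore below 0 in all 3 samples, though on single arrays MRPL36 reached 0.49 and MRPL21 reached 0.09. MRPL21 alone of the members had an unadjusted p under 0.05 when each probe was tested on its own spread. In that unmoderated limma fit 0 of the 14 members and 0 of the 570 probes passed after adjustment, with 32 probes at an unadjusted p under 0.05 and a smallest adjusted p of 0.601.

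MRPL11, the counterpart of a bacterial protein at the base of the stalk that receives translation factors, had a log2 ratio of -0.11 ± 0.23 (SD, n = 3 here and below). It was 0.02 in sample A, 0.03 in B and -0.38 in C. MRPL48 had -0.09 ± 0.32, and opposed sample A at 0.27 to B at -0.35 and C at -0.19. The 2 genes thus differed in which sample was lowest. MRPL24 had -0.07 ± 0.15 and MRPS22, a small-subunit protein without a bacterial counterpart, had -0.05 ± 0.24. MRPL13 lay at -0.01 ± 0.10, between -0.35 and 0.42 on single arrays. For these 3 and MRPL48 the sign turned when each array was centred on its median, so no direction is given for them. MRPL33 was the only tested member with a mean above 0, at 0.09 ± 0.19. Its log2 ratio was 0.33, 0.13 and 0.31 in sample A, 0.07, 0.13 and 0.11 in sample B, and -0.08, -0.56 and 0.09 in sample C. The single low array was the one that stood apart, without which the mean was 0.13 (adjusted p = 0.655). Without sample A the mean of MRPL33 was -0.0049.

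By biological sample, the tested members lay close to the tested probes as a whole. In sample A their median was -0.02, against 0.03 for all 570 probes, and 7 of the 14 were below 0, against 42.8% of all. In sample B the median was -0.32, against -0.26, with 11 of 14 below 0, against 81.9%. In sample C it was -0.19, against -0.14, with 14 of 14 below 0, against 74.0%. The members were thus lower than all tested probes by less than 0.1 in each sample, and sample B was the lowest for both. The sign was the same in A, B and C for 7 of the 14 members, all below 0, against 38.6% of all tested probes (220 of 570). The median SD over the 3 samples was 0.24 for the members, against 0.22 for all tested probes.

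**Figure D2:**
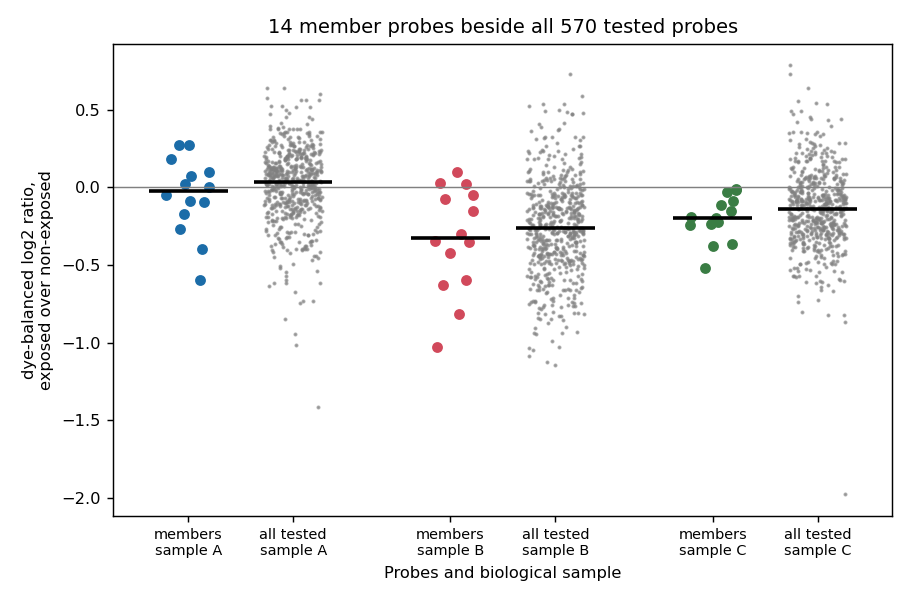
Dye-balanced log2 ratio of exposed over non-exposed cells (y axis) of the 14 tested mitoribosomal probes (coloured points) and of all 570 tested probes (grey points) in samples A, B and C, with black lines at the medians. The median of the members is -0.02 in A, -0.32 in B and -0.19 in C, each close to that of all tested probes (0.03, -0.26 and -0.14).

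The 2 dye orientations, close to uncorrelated across probes in samples A and B and negatively correlated in C, were compared next. On the Cy5 arrays, 9 of the 14 members were below 0 with a median of -0.13, against 64.7% and -0.07 for all tested probes. On the turned dye swaps, 13 of 14 were below 0 with a median of -0.25, against 73.0% and -0.18 for all. The members were therefore lower on the dye swaps, as were the tested probes as a whole. In a limma fit of all 9 arrays that estimated dye and exposure together, 0 of the 14 members had a dye effect past the threshold and 0 had one at an unadjusted p under 0.05, against 7.54% (43 probes) and 24.2% (138 probes) of all 570. The estimated dye effect, on the scale of a log2 ratio of Cy5 over Cy3, lay between -0.08 for MRPL33 and 0.29 for MRPL37, whose dye effect had an adjusted p of 0.251.

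**Figure D3:**
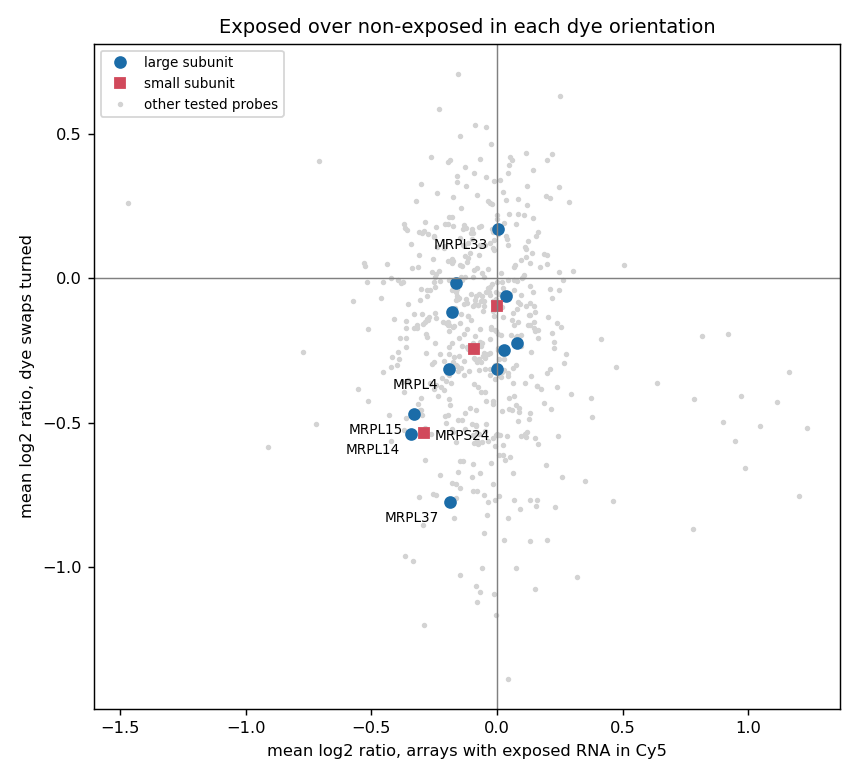
Mean log2 ratio of exposed over non-exposed cells on the turned dye swaps (y axis) against that on the Cy5 arrays (x axis) for the tested large-subunit (blue circles) and small-subunit (red squares) probes, with the other tested probes in grey. MRPL37 lies at -0.19 on the Cy5 arrays and -0.78 on the dye swaps, and MRPL14, MRPS24 and MRPL15 lie below 0 in both.

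The difference between the large and the small subunit had no single sign over the samples. Among the tested members, the median was -0.15 for the 11 large-subunit genes and -0.17 for the 3 small-subunit genes. The mean of the large subunit less that of the small subunit was -0.14 in sample A, 0.15 in B and 0.05 in C, with 0.02 over all 3. The difference thus changed sign between samples, and 3 small-subunit genes carry it. In the wider set of 66 probes measured in 2 samples or more, the median was -0.15 for 38 large-subunit probes (27 below 0) and -0.15 for 28 small-subunit probes (21 below 0). The difference of the means there was 0.01 in A, 0.07 in B and -0.06 in C. Placing MRPS18A in the large subunit, where structures of the mammalian mitoribosome show it, and MRPS36, now named KGD4, in neither gave medians of -0.16 for 39 large-subunit and -0.15 for 26 small-subunit probes. In the same wider set, genes without a bacterial counterpart had a median of -0.20 over 23 probes, against -0.13 over 42 probes with one. Among the tested members the order was the other way, with -0.09 for 3 genes without one and -0.16 for 11 with one. No test was made of these differences.

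The 52 probes outside the dye-balanced set extend the description to 55 genes, but a sample measured in 1 orientation only is not dye-balanced. In this wider fit 0 of the 66 mitoribosomal probes passed, as did 0% of all 5688 probes (limma). An unadjusted p under 0.05 was reached by 2 members (MRPL41 and 1 probe of MRPS11), against 3.80% of all (216 probes). Below 0 lay 48 of the 66 (72.7%), against 65.8% of all, and the medians were -0.15 and -0.09.

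**Figure D4:**
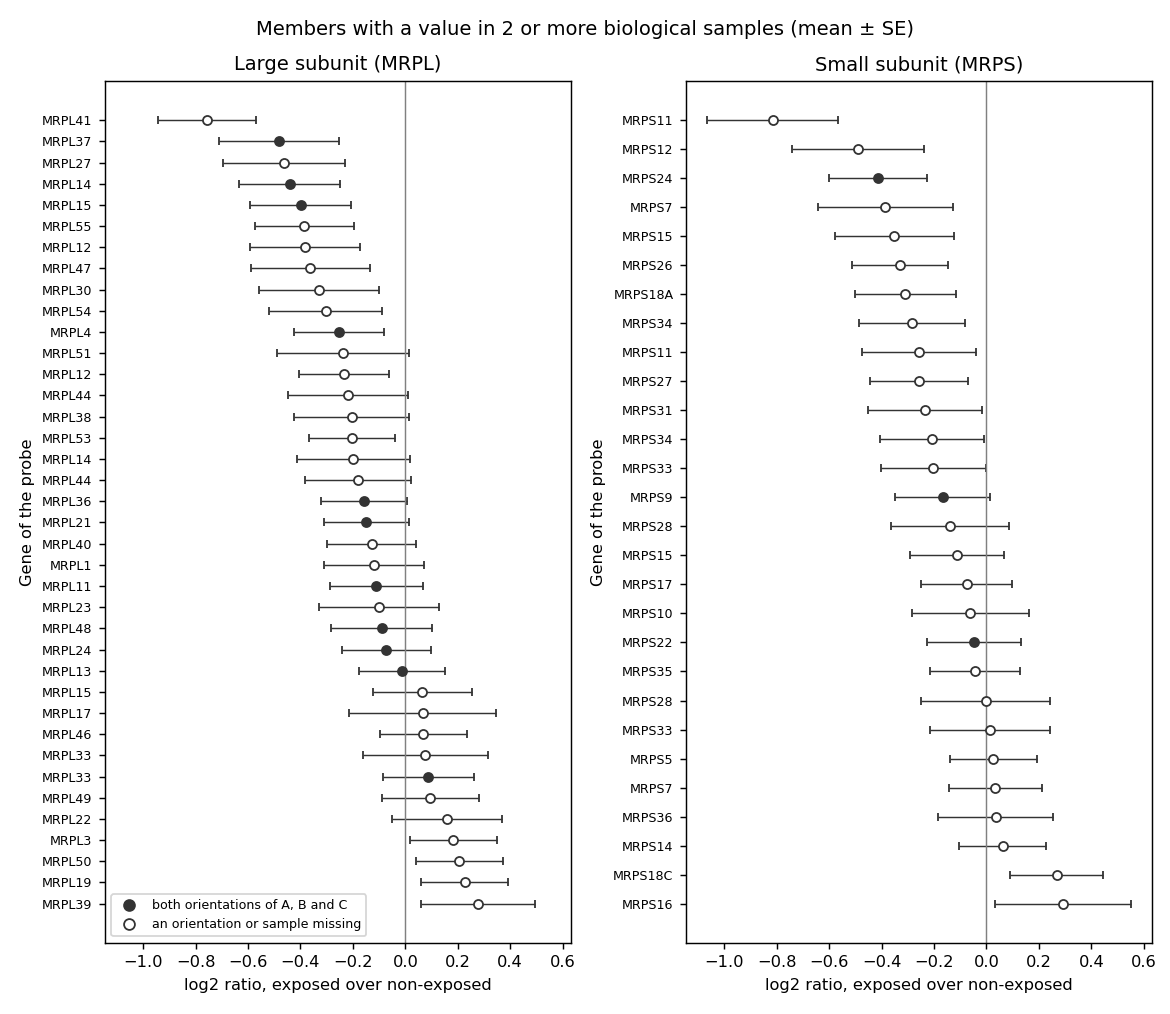
Log2 ratio of exposed over non-exposed cells (x axis, mean ± standard error of the wider fit) of the 66 mitoribosomal probes measured in 2 or more biological samples, large subunit on the left and small subunit on the right, each ordered from lowest to highest. Filled points are the 14 dye-balanced probes, and MRPL41 (-0.76) and a probe of MRPS11 (-0.81) are the lowest.

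MRPL41, a large-subunit protein without a bacterial counterpart, was low on every array that measured it. Its log2 ratio was -0.46 and -0.38 in sample A, -0.61, -0.56 and -1.27 on the dye swap in sample B, and -0.92 on the only array of sample C. All 6 arrays were below 0, with a mean of -0.76 ± 0.29 (SD, n = 3; standard error 0.19, adjusted p = 0.883, unadjusted p = 0.0053). The lowest probe was 1 of MRPS11, a protein of the small-subunit platform in bacteria, at -1.12 in B and -0.51 in C, both from dye swaps and with a mean of -0.81. A second MRPS11 probe had a mean of -0.26 and was below 0 on all 6 arrays that measured it, in samples A and C, and the remaining one had a value on a single array, at -0.18.

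MRPS12, whose bacterial counterpart lies at the decoding centre, had -0.49, from 0.07 and -0.42 in sample A and -0.80 on the dye swap of sample B. MRPL27, near the peptidyl transferase centre in bacteria, had -0.46 ± 0.53 (SD, n = 3). It was 0.41 and -0.09 on the Cy5 arrays of sample A and -0.50 on its dye swap. Sample B had only a dye swap, at -1.07, and sample C only a Cy5 array, at -0.14. A probe of MRPS7 had -0.39, from -0.05 in A and -0.72 in C. The mean of MRPL27 was 0.01 on the Cy5 arrays and -0.79 on the dye swaps, so its low sample B cannot be told apart from dye orientation. MRPS12 and this MRPS7 probe were measured in 2 samples only, which differed widely, and those of MRPS12 also differed in orientation.

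At the other end, MRPS16 had a mean of 0.29 from -0.06 in sample A and 0.64 in sample C, and MRPL39 one of 0.28 from 0.19 and 0.36, on 1 array a sample. MRPS18C had 0.27, and was above 0 on 5 of 6 arrays, with its highest value, 0.59, on the array that stood apart. MRPL19 and MRPL50 had 0.23 and 0.21 over 3 samples each, and both were above 0 in all 3. MRPL19 had 1 array a sample, and MRPL50 in sample C was -0.15 and -0.43 on the Cy5 arrays and 0.44 on the dye swap. MRPL3, one of the proteins that reach the peptidyl transferase centre in bacteria, was above 0 on all 5 of its arrays, which held no dye swap, with a mean of 0.18. These 6, like the low members of the wider set named above, had an adjusted p of 0.883. The other 40 probes lay between -0.38 (MRPL55) and 0.16 (MRPL22), 29 of them below 0, with adjusted p between 0.883 and 0.998. The 11 probes with a value in 1 sample lay between -0.72 (MRPS23) and 0.26 (MRPL42).

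For 11 genes 2 probes had a value in at least 2 samples, which shows how far a gene's value depends on its probe. The sign was the same for 8 genes and differed for MRPL15, MRPS33 and MRPS7. The means of the 2 probes lay 0.01 apart for MRPL33 and 0.56 apart for MRPS11. MRPS34 had -0.28 and -0.21, with the same sign on all 5 arrays the probes shared, and MRPL12, whose bacterial counterpart forms the stalk that recruits elongation factors, had -0.38 and -0.23, also with the same sign on all 5 shared arrays. A probe of MRPS15, chosen after its values were seen, followed the dye. Its Cy5 over Cy3 ratio as deposited was below 0 on all 8 arrays, so that exposed over non-exposed averaged -0.51 on the Cy5 arrays and 0.57 on the dye swaps, and -0.11 in the wider fit.

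Of the genes that work with the mitoribosome, 0 passed in the wider fit (limma; 0 also had an unadjusted p under 0.05). Over all probes of this fit 65.8% lay below 0, with a median of -0.09. Mitoribosomal proteins under other symbols, counted with the associated protein OXA1L, had 5 of 5 probes below 0 with a median of -0.16. Among them ICT1, the release factor built into the large subunit, was at -0.16. Mitochondrial translation factors had 6 of 7 below 0 with a median of -0.09. TUFM, the elongation factor that brings in the charged tRNA, had -0.34 on 1 probe and 0.18 on the other, and TSFM, its exchange factor, had -0.33. Assembly factors and rRNA methyltransferases had 5 of 10 below 0 with a median of -0.0034, and TFB1M, which methylates the small-subunit rRNA, had 0.07. Genes of mitochondrial transcription and DNA maintenance had 3 of 4 below 0 with a median of -0.11, with POLRMT, the RNA polymerase, at -0.12 and TFB2M, its initiation factor, at -0.10. The cytosolic ribosomal proteins had a median of -0.10 over 35 probes in the same fit, against -0.15 for the mitoribosomal ones.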

How the data were processed

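Total RNA of exposed and non-exposed HaCaT cells was amplified, labelled with Cy3 or Cy5 and hybridized on Phalanx Human OneArray slides. The authors normalized the scans in ScanArray Express, and the values they deposited for each probe were taken as log2 ratios of Cy5 over Cy3. The normalization method and the filter that left probes without a value are not given in the sources used here, and without intensities the signal over background is unknown. Taken as log2, 86.6% to 99.1% of an array's ratios lay within 0.05 of a whole thousandth, against at most 10.3% with the other logarithms.

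Dye swaps were multiplied by -1. Dye-balanced values of samples A, B and C entered an intercept model (lmFit and eBayes of limma 3.58.1 under R 4.3.3), with two-sided p adjusted by Benjamini and Hochberg over all 570 probes and a threshold of 0.05. Limma gave all 570 probes 1 standard error (0.154). The wider fit took the 5688 probes measured in 2 or more biological samples. The dye fit used the 9 arrays, with a random block for the biological sample whose estimated correlation was -0.0775. Precision is limited by the number of biological samples (3) and of arrays. In the dye-balanced fit the p-values rest on the spread between samples pooled over all 570 probes, not on a single probe's own spread. The wider fit drew on both, and the p-values of the dye fit come from the 9 arrays. The scripts were tested on simulated data.

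Of the 70 symbols, 69 are current in RefSeq. The genes named were all tested members, the 5 highest and 5 lowest others, and those with 1 sign on all of at least 5 arrays. The members, lists and tests were chosen with earlier results of these data known. The alternatives were other means of the arrays, each orientation alone, dye swaps unturned, centring, quantile normalization, other estimates of the spread, other filters, gene averages, and leaving out each sample or set of arrays. Promoter sequences are from RefSeq (GRCh38.p14).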

Additional observations from a re-analysis of the deposited data

Results flagged for a closer look

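Of the 43 mitoribosomal probes with a value on at least 4 arrays, 4 had 1 array whose gap to the nearest other array exceeded Dixon's limit. Chance alone exceeds this limit in about 1 in 20 groups of values drawn alike. The arrays here mix 3 biological samples and 2 dye orientations, so that rate need not hold. For MRPL51 and the flagged MRPS34 probe the flagged array was the only dye swap measured. MRPL51, a large-subunit protein, was at -1.61 on the dye swap of sample B, and its other 5 arrays lay between -0.24 and 0.40. MRPS34, of the small subunit, was at -1.18 on the same dye swap for 1 of its probes, and the other 5 arrays of that probe lay between -0.25 and 0.15. The other MRPS34 probe, not flagged, also had its lowest value on this dye swap, at -1.005. MRPL24 was at -0.53 on the dye swap of sample C, and its other 8 arrays lay between -0.12 and 0.25. MRPL33 was at -0.56 on the second Cy5 array of sample C, the array that stood apart, and its other 8 arrays lay between -0.08 and 0.33.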

How the results depend on the processing

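The 1 call among the tested members (MRPL37) ended, with 0 members past the threshold, under a plain mean of the arrays and either orientation alone. It also ended with centred arrays, quantile normalization, the 9-array fit with a dye term, each probe's own spread, robust eBayes and the filter that ignores orientation. Taken as Cy5 over Cy3, the values with the dye swaps as deposited cancel the exposure and leave the dye. That setting, also with 0 members past the threshold, thus describes the dye and not the exposure. With only the second Cy5 array of each sample beside its dye swap, MRPL37 also lost its call and MRPS24 gained one. With only the first Cy5 array beside the dye swap, MRPL37 kept its call (-0.64, limma adjusted p = 0.0018), with 32 of all tested probes past the threshold. Leaving out a biological sample gave 0 to 1 members past the threshold (0 without A and without B). Over all tested probes the count was 22, and 0 to 38 under the alternatives. The wider fit and the dye fit gave 0 members in every alternative run, with 23 of all probes past the threshold in the wider fit without B and 2 without C. The causes were not tested. The number of members below 0 was 33 of 46 with orientation ignored and 8 of 9 with only the second Cy5 array beside the dye swap. For the dye, with the dye swaps as deposited, it was 3. The members' median kept its sign in every setting that estimates the exposure. With the dye swaps as deposited it was 0.073, and 0.0166 relative to all tested probes. The large-less-small difference turned to -0.0068 without the second Cy5 array of sample C and -0.0266 with orientation ignored. It was -0.0311 with only the first Cy5 array beside the dye swap, and between -0.0454 and 0.1 when a biological sample was left out. For the dye, with the dye swaps as deposited, it was -0.00634.

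With the dye swaps as deposited, which leaves the dye and not the exposure, 12 members had a sign opposite to their exposure ratio. MRPL37 was at 0.294, MRPL36 at 0.158, MRPL24 at 0.15, MRPL11 at 0.138, MRPS24 at 0.123 and MRPL14 at 0.0991. MRPS9 was at 0.076, MRPL15 at 0.0700, MRPL4 at 0.0608, MRPL13 at 0.0477, MRPS22 at 0.047 and MRPL33 at -0.0825. On the Cy5 arrays alone MRPL24 was at 0.0779, MRPL13 at 0.0348, MRPL11 at 0.027 and MRPL36 at 0.00138. Centred arrays gave MRPL13 0.0984, MRPS22 0.0623, MRPL24 0.039 and MRPL48 0.00256. Quantile normalization gave MRPL13 0.0177 and MRPS22 0.00517, and the plain mean gave MRPL13 0.00306. MRPL13 was also at 0.058 with only the first Cy5 array of each sample beside its dye swap. It was at 0.0351 without the second Cy5 array of sample C, which was left out after seeing the data. Leaving out a biological sample gave MRPL48 -0.271 to 0.0392, MRPS22 -0.163 to 0.0768, MRPL11 -0.179 to 0.0227, MRPL24 -0.119 to 0.0117, MRPL13 -0.0703 to 0.0254 and MRPL33 -0.00489 to 0.187. Each array already compares both RNAs, so the ratios are paired and no further pairing was added. The number of samples and the unknown signal over background limit what can be seen.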
